A study of Mus musculus with 6 samples.

Results

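The 10 genes described here handle iron and haem, and were followed across mouse cells converted from fibroblasts towards macrophages. The genes were chosen by symbol, with earlier results of these data known: Cd163, Hmox1, Blvrb, Slc40a1, Tfrc, Slc11a1, Slc11a2, Fth1, Ftl1 and Ncoa4. All 10 were found among the 30445 genes of the deposited count table, and all 10 had enough counts to be tested with 18613 genes in all. Messenger RNA was sequenced from 6 libraries in 3 groups of 2: induced macrophages (iMac), the cells called MCC for myeloid-like cell complex, and mouse embryonic fibroblasts (MEF). Every library is labelled as wild type, and the study concerns fibroblasts reprogrammed with c-Myc. The labels do not say which steps led to MCC and iMac or which cells of a culture were taken. Nothing says that the libraries of a group came from separate cultures, so the p-values measure only the spread between these libraries, which may be technical.

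Macrophages are the cells that recover the iron of worn-out red blood cells. Haemoglobin taken up with its carrier or inside whole red cells is broken down, haem oxygenase opens the haem ring and frees its iron, and biliverdin reductases work on the pigment that is left. The freed iron is stored inside ferritin shells or leaves the cell through ferroportin, while transferrin-bound iron enters through the transferrin receptor. Much of this is controlled after transcription, since iron regulatory proteins bind hairpins called iron-responsive elements in several of these mRNAs. Bound in the 5′ UTR of a ferritin mRNA they block its translation, and bound in the 3′ UTR of the transferrin receptor mRNA they protect it from decay. Counts of mRNA therefore do not give the amount of ferritin protein.

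The elements of 3 of the genes are shown because ferritin and transferrin receptor mRNAs were both higher in the converted cells, and these hairpins are known to act on them in opposite ways. Mature transcripts of GENCODE release M21 on GRCm38 were searched, on the sense strand, for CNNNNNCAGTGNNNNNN in which the 5 bases before the loop pair with the 5 after it, G with T allowed. Of 21901 protein-coding genes, 294 (1.34%) held a match. Fth1 had 1 match in its 5′ UTR at chr19:9982732-9982760 on the plus strand, Ftl1 had 1 in its 5′ UTR at chr7:45459779-45459807 on the minus strand, and Tfrc had 4 in its 3′ UTR between positions 32631219 and 32631738 of chromosome 16, on the plus strand. The loop is in capitals, written 5′ to 3′:
Fth1: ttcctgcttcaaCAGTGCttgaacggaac
Ftl1: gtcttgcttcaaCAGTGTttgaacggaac
Tfrc match 1: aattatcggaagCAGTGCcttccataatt
Tfrc match 2: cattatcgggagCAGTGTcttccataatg
Tfrc match 3: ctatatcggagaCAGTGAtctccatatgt
Tfrc match 4: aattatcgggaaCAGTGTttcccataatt
The Fth1 and Ftl1 stretches were identical at 26 of 29 positions, the Tfrc stretches shared 9 to 11 with that of Fth1, and the Tfrc stretches shared 18 to 25 among themselves. Matches were listed for Fth1, Ftl1 and Tfrc only, so whether the other genes followed here hold one is not reported. A match is a description of sequence, not a measured binding site.

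Levels are counts scaled to a library total of 1000000 (CPM). The libraries held 34389817 to 39174367 counts. Summed over 10 macrophage marker genes, levels were 18546 to 22245 CPM in iMac, 10915 to 11134 CPM in MCC and 25.9 to 50.7 CPM in MEF, where Itgam had no counts. The 10 fibroblast marker genes summed to 11.4 to 14.7 CPM in iMac, 886 CPM in MCC library 1 against 76.9 CPM in MCC library 2, and 20050 and 8514.5 CPM in the MEF libraries. Of 10 erythroid markers 6 were in the table, summing to 11.8 to 12.6 CPM in iMac, 4.58 to 6.23 CPM in MCC and 1.14 to 1.55 CPM in MEF. Nearly all of that in iMac came from Epor, and the haemoglobin gene Hba-a1 had no counts in iMac or MCC. Granulocyte markers, 6 of 8 in the table, reached at most 1.53 CPM in any library. Hepatocyte markers, 5 of 6 in the table, reached at most 27.6 CPM, and Alb, Apoa1 and Ttr had no counts in iMac or MCC. Nearly all of that sum came from Hp, at 5.17 and 6.75 CPM in iMac, 9.78 and 27.1 CPM in MCC, and 6.02 and 24.1 CPM in MEF. Macrophage and fibroblast markers thus moved with the groups, and their part in the results was not tested. These are bulk libraries, in which fewer cells of a type and less RNA per cell cannot be told apart.

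Of the 10 genes, 8 rose in iMac over MEF, where 25.1% of all tested genes rose, and 9 rose in MCC over MEF, where 23.4% rose. None fell in either, against 32.4% and 29.6% of all tested genes, and the calls in either direction covered 57.6% and 53% of the table. The gene called in MCC only was Hmox1, whose iMac and MEF levels overlapped. Slc11a2 passed in neither comparison, and none of the 10 passed between iMac and MCC. At an unadjusted p of 0.05 the counts were again 8 and 9, against 63% and 60.6% of all tested genes. The median log2 fold change of the 10 genes was 1.95 for iMac over MEF, against -0.06 for all tested genes, and 1.67 for MCC over MEF, against -0.05. The pair of comparisons share the MEF libraries, so they are not independent. The 10 genes and the pathway list used below were chosen with earlier results of these data known. Counts and medians set beside those of all tested genes are therefore descriptions and not tests of the choice. Tests are edgeR's two-sided quasi-likelihood test with Benjamini-Hochberg adjustment over all 18613 genes, called at 0.05.

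**Figure D1:**
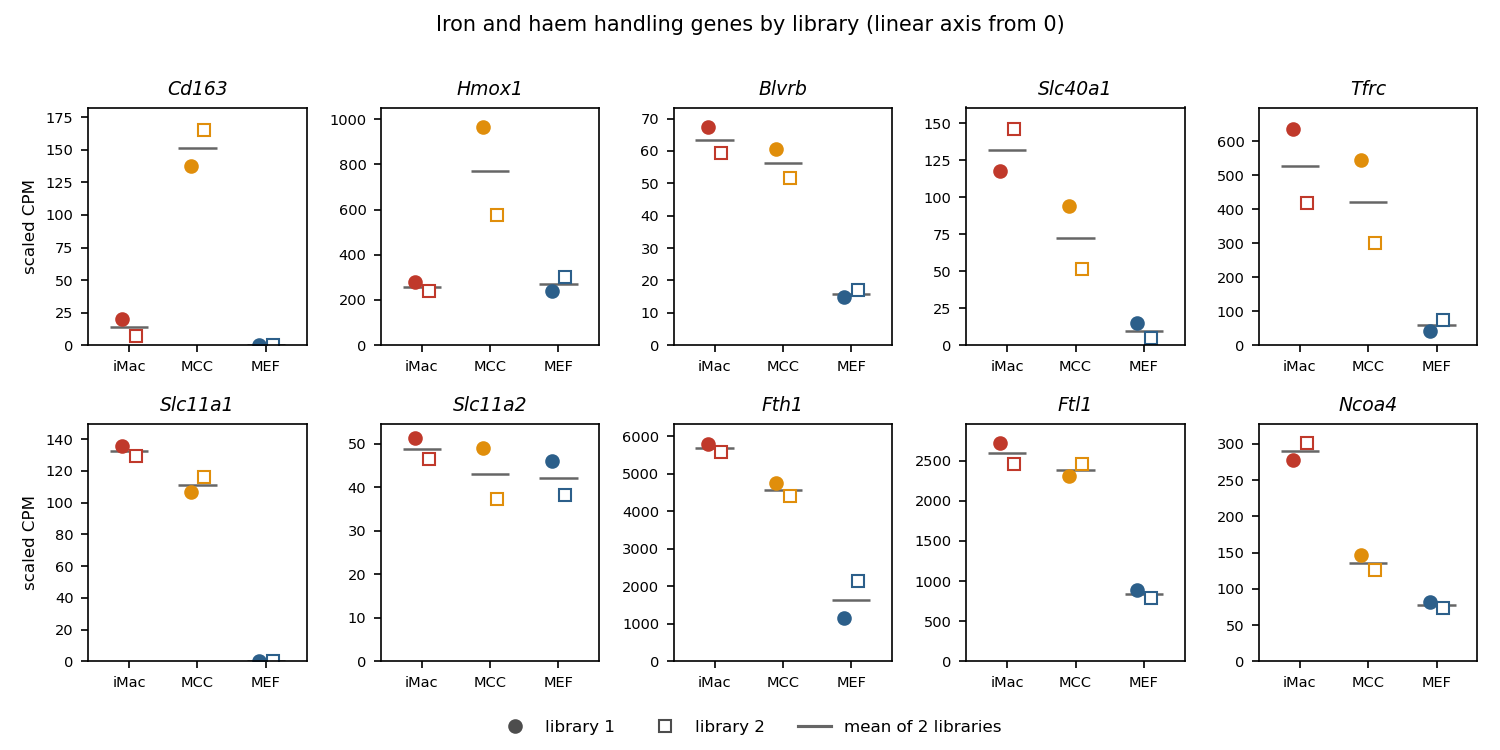
Level of each of the 10 genes in each library, in scaled CPM on a linear axis from 0, with iMac, MCC and MEF from left to right; filled circles are library 1, open squares library 2 and bars the mean of 2 libraries. Cd163 and Hmox1 are highest in both MCC libraries, Slc11a2 is at 37.3 to 51.3 CPM in every library, and the other 7 genes are lower in both MEF libraries than in any iMac or MCC library.

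Capture of haemoglobin was represented by Cd163, the scavenger receptor that takes up haemoglobin bound to haptoglobin (chr6:124304656-124330527, plus strand, GRCm38 as for the coordinates that follow). It was at 20.3 and 7.03 CPM in iMac, 137 and 166 CPM in MCC, and 0.0542 and 0.232 CPM in MEF, which is 2 and 9 reads. The groups did not overlap. The level in MCC stood far above that in iMac, but this difference did not pass (edgeR adjusted p = 0.122). The log2 fold change was 6.53 ± 0.81 (SE) for iMac over MEF (edgeR adjusted p = 0.00296) and 9.997 ± 0.876 for MCC over MEF (edgeR adjusted p = 0.0015). These sizes moved with the library left out: leaving out MEF library 1 or 2 gave 5.87 or 7.87 for iMac and 9.34 or 11.41 for MCC, and leaving out iMac library 1 or 2 gave 5.59 or 7.12. All of these kept their call. The iMac libraries differed 2.89-fold from each other, more than the MCC libraries did at 1.21-fold.

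Breakdown of haem was represented by Hmox1, the inducible haem oxygenase (chr8:75093621-75100589, plus strand), and Blvrb, a reductase of biliverdin and flavins (chr7:27447978-27466144, plus strand). Hmox1 was at 278 and 238 CPM in iMac, 965 and 574 CPM in MCC, and 238 and 299.8 CPM in MEF. Both MCC libraries were above all others, and the iMac and MEF libraries overlapped. Hmox1 rose 2.86-fold in MCC over MEF, a log2 fold change of 1.52 ± 0.28 (edgeR adjusted p = 0.0108), and the call was lost without MEF library 1 (1.37, edgeR adjusted p = 0.0524). For iMac over MEF the log2 fold change was -0.06 ± 0.28 (edgeR adjusted p = 0.87). Blvrb was at 67.3 and 59.3 CPM in iMac, 60.6 and 51.7 CPM in MCC, and 14.9 and 16.95 CPM in MEF. The MEF libraries lay well below all others. Blvrb rose in both over MEF, 3.98-fold in iMac (1.99 ± 0.15, edgeR adjusted p = 0.000742) and 3.53-fold in MCC (1.82 ± 0.14, edgeR adjusted p = 0.00116).

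Of the other listed genes of haem and biliverdin breakdown, 4 of 4 rose in iMac and in MCC over MEF, where 25.1% and 23.4% of all tested genes rose. Of these, Ugt1a1 rests on 2 reads in MEF and shares 82.7% of its exonic bases with other annotated genes, so its level is uncertain. Hmox2, the constitutive haem oxygenase, which shares 40.2% of its exonic bases with a gene on the opposite strand, was at 113 and 96.9 CPM in iMac, 77.4 and 79.7 CPM in MCC, and 34.7 and 29.9 CPM in MEF, a log2 fold change of 1.70 ± 0.13 for iMac over MEF and 1.28 ± 0.13 for MCC over MEF. Blvra, the main biliverdin reductase, rose by 2.88 ± 0.15 and by 2.59 ± 0.15 on the log2 scale. Por, which passes electrons to haem oxygenase, rose 1.55-fold in iMac and 1.54-fold in MCC, and Ugt1a1, which conjugates bilirubin, was near the limit of detection. Ugt1a1 was 15.3-fold higher in iMac (95% counting interval 3.85 to 133) and 9.98-fold higher in MCC (2.43 to 88.1). The reads of Hmox1 per read of Hmox2 were 2.46 and 2.46 in the iMac libraries, 12.5 and 7.20 in the MCC libraries, and 6.86 and 10.02 in the MEF libraries. This ratio was lowest in iMac, with no overlap with either other group.

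The genes of iron export and of transferrin uptake both rose. Slc40a1 encodes ferroportin, the iron exporter (chr1:45908068-45926523, minus strand), and was at 118 and 146 CPM in iMac, 94.3 and 51.3 CPM in MCC, and 14.8 and 4.95 CPM in MEF. Tfrc, the receptor for transferrin (chr16:32608920-32632794, plus strand), was at 636 and 418 CPM in iMac, 545 and 299.6 CPM in MCC, and 41.9 and 74.5 CPM in MEF. For both genes each iMac and MCC library was above each MEF library, and for Slc40a1 each iMac library was also above each MCC library. Slc40a1 rose by 3.74 ± 0.62 on the log2 scale in iMac (edgeR adjusted p = 0.00662) and by 2.88 ± 0.60 in MCC (edgeR adjusted p = 0.0146). Leaving out MEF library 1 gave 4.74 for iMac and 3.89 for MCC, and leaving out MEF library 2 gave 3.13 for iMac, all of them called. Tfrc rose 9.05-fold in iMac (3.18 ± 0.46, edgeR adjusted p = 0.00453) and 7.25-fold in MCC (2.86 ± 0.46, edgeR adjusted p = 0.00692).

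The MCC libraries differed from each other most in these genes. In MCC library 1 the level was 1.68 times that of library 2 for Hmox1, 1.84 times for Slc40a1 and 1.82 times for Tfrc, while the other 7 genes differed by at most 1.31-fold. Fibroblast markers were higher in MCC library 1, as given above, and their part in these differences was not tested. The mean level in MEF was 269 CPM for Hmox1, 9.89 CPM for Slc40a1 and 58.2 CPM for Tfrc, below both MCC libraries for each. Between the MEF libraries Slc40a1 was 2.998 times higher in library 1, and Tfrc 1.78 times and Fth1 1.84 times higher in library 2.

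Of the divalent metal transporters, 1 rose and 1 did not pass. Slc11a1 encodes a proton-coupled transporter of phagosomes and lysosomes known for resistance to intracellular microbes (chr1:74375195-74386062, plus strand), and was at 136 and 129.6 CPM in iMac, 107 and 116 CPM in MCC, and 0.434 and 0.283 CPM in MEF. Both MEF libraries were under 1 CPM, and the iMac and MCC libraries were close within and between groups, without overlap. The log2 fold change was 8.52 ± 0.22 for iMac over MEF (edgeR adjusted p = 5.91e-05) and 8.27 ± 0.22 for MCC over MEF (edgeR adjusted p = 7.27e-05). Slc11a2, its broadly expressed relative that brings iron out of endosomes and into gut cells (chr15:100387898-100425072, minus strand), was at 51.3 and 46.5 CPM in iMac, 49.0 and 37.3 CPM in MCC, and 46.1 and 38.4 CPM in MEF. Neither comparison with MEF passed, at 0.21 ± 0.18 for iMac (edgeR adjusted p = 0.352) and 0.03 ± 0.18 for MCC (edgeR adjusted p = 0.891). Slc11a1 gave 2.64 and 2.79 reads per read of Slc11a2 in iMac, 2.17 and 3.11 in MCC, and 0.00941 and 0.00739 in MEF.

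Storage of iron was represented by the ferritin subunits, Fth1 for the heavy chain, which oxidises iron (chr19:9980598-9985098, plus strand), and Ftl1 for the light chain (chr7:45457944-45459884, minus strand). Fth1 was at 5797 and 5584 CPM in iMac, 4757 and 4396 CPM in MCC, and 1159 and 2133 CPM in MEF. Ftl1 was at 2721 and 2464 CPM in iMac, 2303 and 2455 CPM in MCC, and 893 and 792 CPM in MEF. Together they made up 0.798% and 0.776% of all counts in the iMac libraries, 0.737% and 0.719% in MCC, and 0.193% and 0.313% in MEF. Fth1 rose 3.46-fold in iMac (1.79 ± 0.31, edgeR adjusted p = 0.00736) and 2.78-fold in MCC (1.47 ± 0.31, edgeR adjusted p = 0.0146). Ftl1 rose 3.08-fold in iMac (1.62 ± 0.14, edgeR adjusted p = 0.00103) and 2.82-fold in MCC (1.497 ± 0.135, edgeR adjusted p = 0.0016). The MEF libraries were lowest for both and differed from each other in Fth1. The ratio of the chains spread most in MEF: Fth1 gave 2.13 and 2.27 reads per read of Ftl1 in iMac, 2.07 and 1.79 in MCC, and 1.30 and 2.69 in MEF.

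The level of Ftl1 is uncertain, because copies of it are annotated elsewhere and other annotated genes share 34.6% of its exonic bases, and how the counting treated reads that match several places is not given. Ftl1-ps1 held 2.29% to 2.79% of the Ftl1 count and Ftl1-ps2 0.294% to 0.445% over the 6 libraries. Fth1 and Ncoa4 also have annotated pseudogene copies, and Ncoa4-ps held 0.564% to 1.04% of the Ncoa4 count. Slc11a2 shares 6.33% of its exonic bases with another annotated gene, and the other 8 genes share none.

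Release of stored iron was represented by Ncoa4, the cargo receptor that carries ferritin to the lysosome (chr14:32159865-32179855, plus strand). It was at 278 and 301 CPM in iMac, 146 and 126 CPM in MCC, and 81.2 and 73.1 CPM in MEF. The 3 groups did not overlap, and the libraries within each were close. Ncoa4 rose 3.75-fold in iMac over MEF (1.91 ± 0.12, edgeR adjusted p = 0.000524) and 1.76-fold in MCC over MEF (0.82 ± 0.12, edgeR adjusted p = 0.00539).

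**Figure D2:**
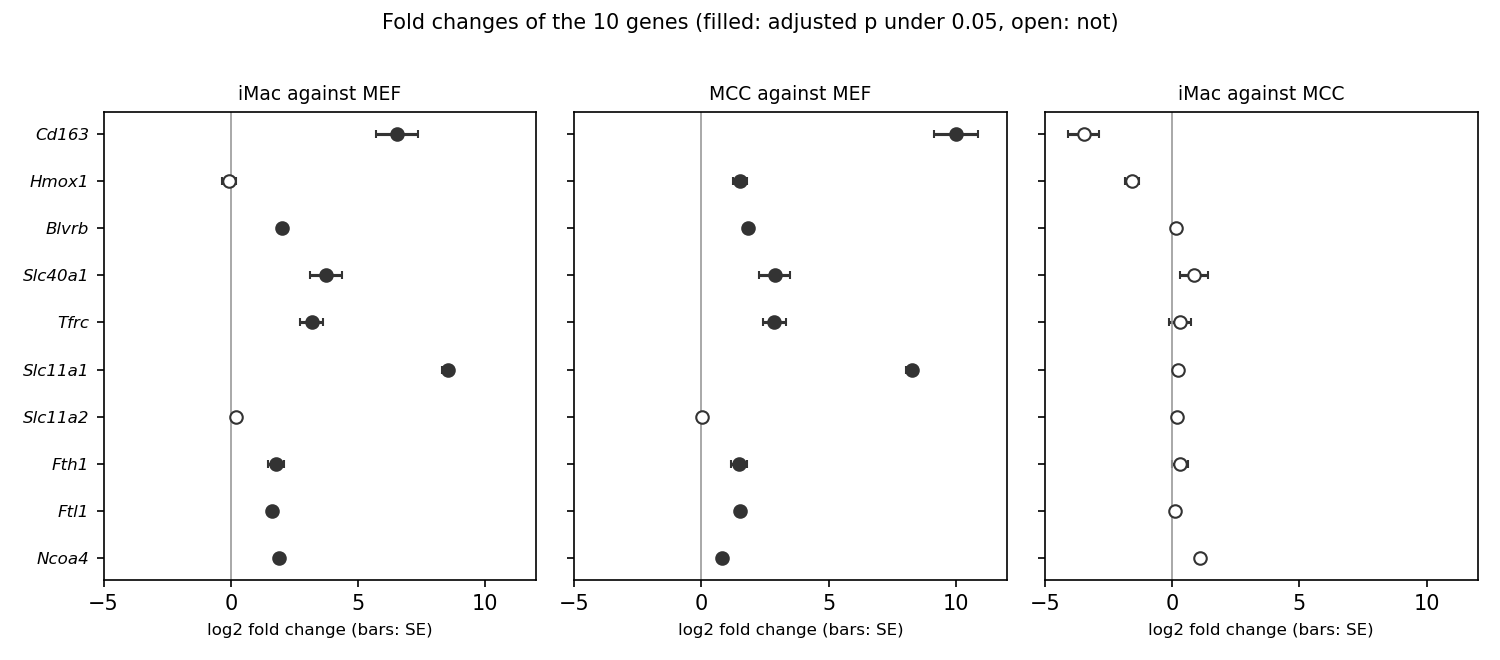
Log2 fold change of each of the 10 genes with its standard error, for iMac over MEF, MCC over MEF and iMac over MCC; filled points passed an adjusted p of 0.05. Slc11a1 and Cd163 lie farthest to the right in both comparisons with MEF, Hmox1 is filled for MCC over MEF only, and no point is filled for iMac over MCC.

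Between iMac and MCC, none of the 10 genes passed with edgeR, and 0.0215% of all tested genes, or 4, were called, with 0.0107% in each direction. Of the 10, 3 were under an unadjusted p of 0.05, against 18.2% of all genes. These 3 were Cd163 with a log2 fold change of -3.47 ± 0.60 (edgeR adjusted p = 0.122), Hmox1 with -1.57 ± 0.28 (edgeR adjusted p = 0.1252) and Ncoa4 with 1.09 ± 0.12 (edgeR adjusted p = 0.0756). For each of them the libraries of the groups did not overlap, but the same held for Slc40a1, Slc11a1, Fth1 and Ftl1. The share of all tested genes without overlap is not given. DESeq2 called all 3, with adjusted p = 1.78e-07 for Cd163, 9.81e-06 for Hmox1 and 7.38e-12 for Ncoa4. Calls by limma-voom were Cd163 (adjusted p = 0.0417) and Ncoa4 (adjusted p = 0.0374). The shares of all genes that DESeq2 and limma-voom called here are not given, so these calls have no background beside them. Without MCC library 2, edgeR called Hmox1 (-2.04, adjusted p = 0.00878) and Ncoa4 (0.85, adjusted p = 0.0454). The other 7 genes had log2 fold changes of 0.12 to 0.86, none of them called by any of the 3 tools.

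Per kilobase of exon the ferritin transcripts led in every group. In iMac the order was Ftl1 (1935 CPM per kilobase), Fth1 (1640), Hmox1 (147), Tfrc (85.2), Slc11a1 (35.8), Ncoa4 (30.9), Blvrb (22.8), Slc40a1 (14.6), Slc11a2 (7.70) and Cd163 (2.50), with no overlap between neighbours. In MCC, Cd163 stood sixth at 27.7 CPM per kilobase, overlapping Slc11a1 at 30.0, and Hmox1 reached 439 CPM per kilobase. In MEF, Tfrc at 9.41 overlapped Ncoa4 at 8.24 CPM per kilobase, Ftl1 at 629 overlapped Fth1 at 475, and Slc11a1 at 0.0968 and Cd163 at 0.0262 came last. With the length of the principal transcript in place of all annotated exons, an alternative chosen after the data were seen, the mean of Fth1 came before that of Ftl1 in each group, at 3809 against 2678 CPM per kilobase in iMac. In MEF the libraries overlapped on this scale, with Fth1 at 776 and 1428 and Ftl1 at 923 and 819 CPM per kilobase. The order of other genes also moved. In iMac Slc11a1 came at rank 7 (57.3), behind Ncoa4 (71.2) and Blvrb (61.6), and overlapped Blvrb. In MEF Tfrc came at rank 7 (11.9), and in MCC Blvrb came at rank 5 (54.6).

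The genes nearest to a member differed in how closely they followed its pattern over the 6 libraries. Likeness was the Euclidean distance between centred log2(CPM + 1) values, over 10884 genes whose mean reached 5 CPM. Nearest to Cd163 were Saa3 (distance 1.78), Itgal (2.02) and Clec4n (2.13), none of them close. Saa3 was at 53.8 and 236.5 CPM in the MCC libraries, where Cd163 was at 137 and 166 CPM. Nearest to Hmox1 were Havcr2 (0.589), Cebpb (0.608) and Dusp9 (0.621). Slc11a1 was followed more closely, by Fyb (0.190), Selplg (0.265) and Sash3 (0.267). The smallest distance was that of Pygl to Blvrb (0.0840). Nearest to Ftl1 were Stk4 (0.0879), Crlf3 (0.128) and Map3k15 (0.165), to Ncoa4 Man1c1 (0.245), to Slc40a1 Serpinb6b (0.744) and to Tfrc Akr1c13 (0.563).

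Other genes of the pathway were taken from a list of 76, of which 74 were in the table and 68 were tested. In iMac over MEF 20 rose and 15 fell, and in MCC over MEF 20 rose and 10 fell, so 51.5% and 44.1% of those tested were called, beside 57.6% and 53% of all tested genes. The count that rose in iMac was 11 without iMac library 1 and 12 without iMac library 2, and the count that fell in MCC was 6 without iMac library 1 and 6 in a fit of only the groups compared. Their median log2 fold change was 0.03 for iMac over MEF and 0.06 for MCC over MEF. The median of all tested genes was -0.06 and -0.05. Among the genes named from the list, Ppox, Flvcr1 and Nfs1 share 17.5%, 15.6% and 11.2% of their exonic bases with other annotated genes.

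**Figure D3:**
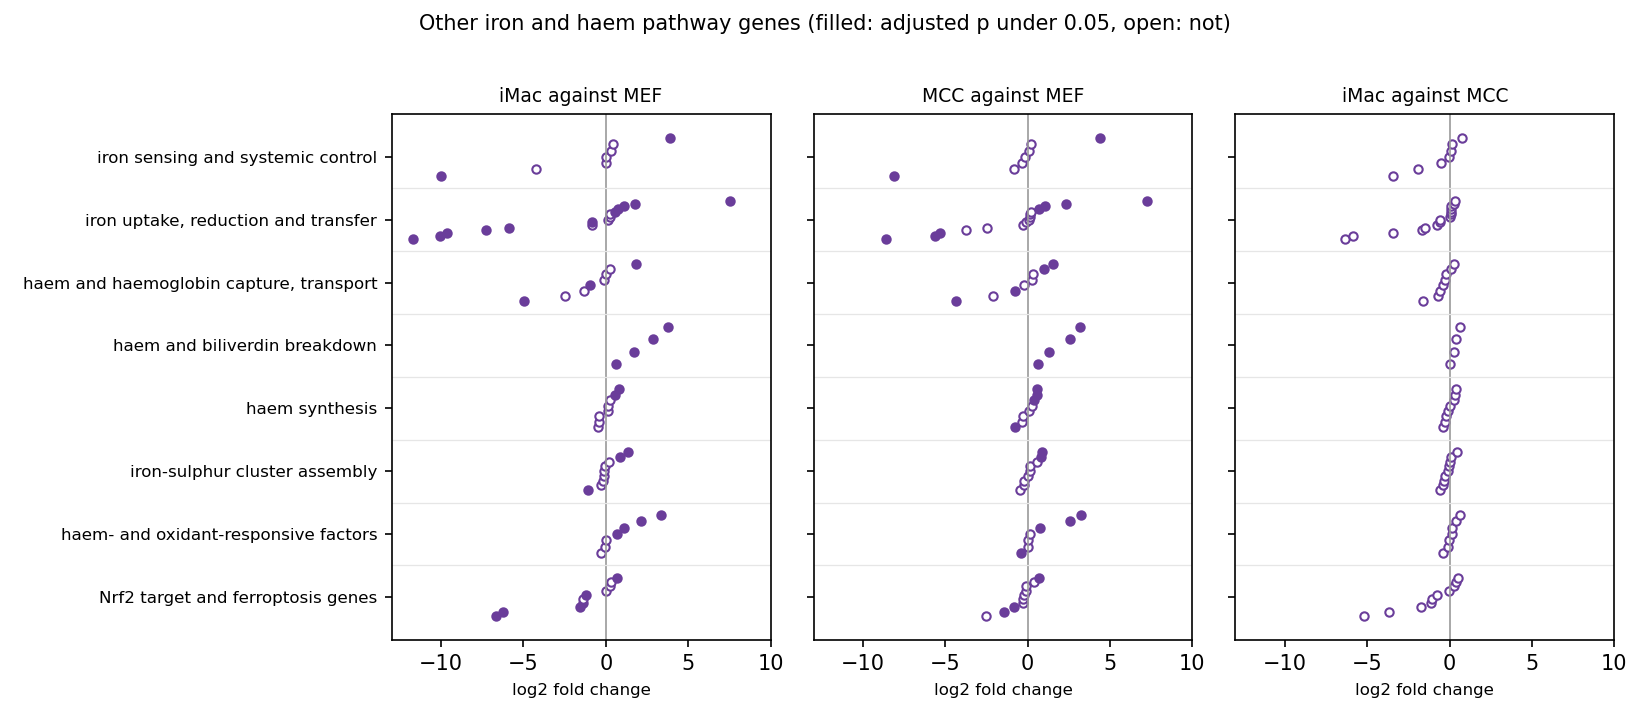
Log2 fold change of the 68 tested pathway genes by group of the list, for iMac over MEF, MCC over MEF and iMac over MCC; each point is a gene, filled where the adjusted p was under 0.05, and points of genes with 3 counts or fewer in a group are fitted values. The haem and biliverdin breakdown row has 4 filled points to the right of 0 in both comparisons with MEF, the iron uptake row has filled points on both sides, and no point is filled for iMac over MCC.

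Among the listed genes of iron uptake and transfer, transferrin rose most, while Cybrd1 changed by more in the other direction, as given below. Trf, which encodes this iron carrier, was at 691 and 683 CPM in iMac, 535 and 587 CPM in MCC, and 1.44 and 5.80 CPM in MEF. The converted cells stood far above the fibroblasts in every library, with log2 fold changes of 7.57 ± 0.76 for iMac (edgeR adjusted p = 0.00169) and 7.27 ± 0.75 for MCC (edgeR adjusted p = 0.00224). Leaving out MEF library 1 or 2 gave 6.60 or 8.66 for MCC. Trf shares 63.5% of its exonic bases with Gm20425 on the same strand, so how its reads were divided between them is uncertain. The iMac value was named after it was seen. In the iron uptake and transfer group 5 genes rose and 6 fell in iMac over MEF, and 4 rose and 3 fell in MCC over MEF, of 15 tested. The shares of all tested genes were 25.1% higher and 32.4% lower in iMac, and 23.4% higher and 29.6% lower in MCC. Slc25a37, a mitochondrial iron importer, rose 1.69-fold in iMac (edgeR adjusted p = 0.0520 without iMac library 2) and 1.60-fold in MCC. Of the metalloreductases, Cybrd1 was at 27.3 and 77.9 CPM in MEF and Steap4 at 8.16 and 14.6 CPM. Cybrd1 was 1184-fold lower in iMac than in MEF with a 95% counting interval of 405 to 5741, on 3 reads in iMac, and Steap4 had no counts in iMac and was at least 253-fold lower, with the floor at 3 counts over a group. In MCC over MEF, Cybrd1 had a log2 fold change of -8.61 ± 0.79, which was -7.60 without MEF library 2 and -9.28 without MCC library 1. Steap3, the reductase of transferrin endosomes, was at 91.1 and 82.4 CPM in iMac, 82.1 and 79.8 CPM in MCC, and 53.8 and 93.5 CPM in MEF, and passed in neither. Cp, the ferroxidase ceruloplasmin, was at 38.3 and 39.8 CPM in iMac, 96.9 and 34.1 CPM in MCC, and 70.7 and 70.1 CPM in MEF, and passed in neither.

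Neither gene of the iron regulatory proteins passed, nor did Fbxl5. Aco1 and Ireb2, which encode the iron regulatory proteins that bind the hairpins shown above, averaged 104 ± 0.945 and 115 ± 0.176 CPM in iMac, 107 ± 10.2 and 103 ± 3.46 CPM in MCC, and 103 ± 10.5 and 114 ± 2.88 CPM in MEF (SD, n = 2). Fbxl5, which marks Ireb2 protein for decay when iron is plentiful, averaged 60.7 ± 4.61 CPM in iMac, 56.1 ± 1.23 CPM in MCC and 47.9 ± 5.53 CPM in MEF. In the group of sensing and systemic control 1 gene rose and 1 fell, of 7 tested, in each comparison with MEF. Beside this, 25.1% of all tested genes rose and 32.4% fell in iMac, and 23.4% rose and 29.6% fell in MCC. Hfe, an MHC-like partner of the transferrin receptor, rose by 3.87 ± 0.14 on the log2 scale in iMac (edgeR adjusted p = 0.000119) and by 4.37 ± 0.14 in MCC (edgeR adjusted p = 0.000113). Bmp6, the ligand that raises hepcidin in the liver, was 1288-fold lower in iMac, on 1 read, with a counting interval of 231 to 50907, against a mean of 19.2 CPM in MEF. In MCC over MEF its log2 fold change was -8.12 ± 0.68, with -9.30 and -7.36 when MCC library 1 or 2 was left out.

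Haem transport genes were mixed. Of 8 tested, 1 rose and 2 fell in iMac over MEF, and 2 rose and 2 fell in MCC over MEF. Beside this, 25.1% of all tested genes rose and 32.4% fell in iMac, and 23.4% rose and 29.6% fell in MCC. Flvcr1, a haem exporter, rose 3.50-fold in iMac and 2.92-fold in MCC. Slc48a1, which moves haem out of the phagolysosome, was at 162 and 127 CPM in iMac, 257 and 215 CPM in MCC, and 145 and 97.2 CPM in MEF. It rose 1.95-fold in MCC (edgeR adjusted p = 0.0239; 0.0782 without MEF library 2 and 0.0694 without MCC library 1) and did not pass in iMac. Abcg2, a porphyrin and drug exporter, fell by 0.98 ± 0.13 on the log2 scale in iMac and by 0.75 ± 0.13 in MCC.

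Of the genes that make haem, 2 of 8 rose and 0 fell in iMac over MEF, and 3 rose and 1 fell in MCC over MEF (edgeR). At an unadjusted p of 0.05 the counts were 3 and 4, against 63% and 60.6% of all tested genes. The shares of all tested genes called were 25.1% higher and 32.4% lower in iMac, and 23.4% higher and 29.6% lower in MCC. Alas1, the first enzyme outside red cells, rose 1.49-fold in MCC, at 71.2 and 83.1 CPM against 49.0 and 54.7 CPM in MEF, and was at 64.3 and 60.9 CPM in iMac. Ppox and Urod, later enzymes of the route, rose 1.71-fold and 1.47-fold in iMac; without iMac library 1 the edgeR adjusted p was 0.0515 for Ppox and 0.0668 for Urod. For Urod it was also 0.0541 without MEF library 2 and 0.0826 without iMac library 2. Uros fell by 0.75 ± 0.16 on the log2 scale in MCC, and its edgeR adjusted p was 0.0574 and 0.0540 without MEF library 1 or 2, 0.0825 without MCC library 2 and 0.0501 without iMac library 1. Fech, which inserts the iron, averaged 62.5 ± 3.93 CPM in iMac, 60.5 ± 2.53 CPM in MCC and 58.1 ± 5.27 CPM in MEF. In cluster assembly 2 of 9 rose and 1 fell in iMac, and 2 rose and 0 fell in MCC (4 were under an unadjusted p of 0.05). Hscb, a co-chaperone of the assembly, rose 2.54-fold in iMac and 1.86-fold in MCC. Nfs1, which supplies the sulphur, rose 1.73-fold in MCC (edgeR adjusted p = 0.0508 without MCC library 1, 0.0518 and 0.0521 without iMac library 1 or 2), and Bola3 fell by 1.09 ± 0.17 on the log2 scale in iMac (edgeR adjusted p = 0.0520 without iMac library 1).

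Among factors that control Hmox1, Bach1 rose in both converted groups. Hmox1 belongs to the targets that the activator Nrf2, encoded by Nfe2l2, switches on and that the haem-sensing repressor Bach1 holds down. Bach1 was at 171 and 163 CPM in iMac, 122 and 135 CPM in MCC, and 84.6 and 69.0 CPM in MEF, with no overlap between groups, and Bach1 rose 2.18-fold in iMac (edgeR adjusted p = 0.00245) and 1.67-fold in MCC (edgeR adjusted p = 0.00901). Nfe2l2 was at 216 and 206 CPM in iMac, 147 and 120 CPM in MCC, and 116 and 151 CPM in MEF. It rose 1.58-fold in iMac (edgeR adjusted p = 0.0245), but not without MEF library 1 (0.0640), iMac library 1 (0.112) or iMac library 2 (0.0938), nor with library totals left unscaled (0.076). Maf, a factor of tissue macrophages, rose 10.2-fold in iMac and 9.32-fold in MCC. Nr1h3, a sterol-sensing receptor, rose 4.45-fold in iMac, with an edgeR adjusted p of 0.0822 without iMac library 1 and 0.0683 without iMac library 2, and 5.91-fold in MCC. Its log2 fold change was 3.06 in iMac and 3.54 in MCC without MEF library 2, against 2.16 and 2.56 with all libraries. Spic, a haem-induced factor of splenic macrophages, had no counts in MEF and averaged 0.0748 CPM in iMac and 0.104 CPM in MCC. In this group of factors 4 of 7 rose and 0 fell in iMac, and 3 rose and 1 fell in MCC (edgeR). At an unadjusted p of 0.05 the counts were 5 and 4, against 63% and 60.6% of all tested genes. The shares of all tested genes called were 25.1% higher and 32.4% lower in iMac, and 23.4% higher and 29.6% lower in MCC.

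Of the 10 Nrf2 target and ferroptosis genes, 5 fell in iMac over MEF and 1 rose, against 2 and 1 in MCC over MEF. Of all tested genes 32.4% fell in iMac and 29.6% in MCC. Slc7a11, the cystine importer, was at 0.269 and 0.271 CPM in iMac, 11.6 and 8.83 CPM in MCC, and 15.99 and 40.2 CPM in MEF. Nqo1, a quinone reductase, was at 0.508 and 0.694 CPM in iMac, 13.4 and 1.82 CPM in MCC, and 33.9 and 56.1 CPM in MEF. Gclm, a subunit of the enzyme that starts glutathione synthesis, was at 22.2 and 20.7 CPM in iMac, 61.8 and 82.8 CPM in MCC, and 48.2 and 64.5 CPM in MEF. All 3 were lowest in iMac, and for Gclm the MCC and MEF libraries overlapped. For iMac over MEF, Slc7a11 fell by 6.68 ± 0.61 on the log2 scale (-5.89 without MEF library 2), Nqo1 by 6.22 ± 1.12 and Gclm by 1.39 ± 0.21, with edgeR adjusted p of 0.00132, 0.00824 and 0.00512. Nqo1 lost its call without iMac library 1 (edgeR adjusted p = 0.0655) or iMac library 2 (0.0614). The other 2 that fell were Txnrd1 (-1.19 ± 0.13), a thioredoxin reductase, and Srxn1 (-1.54 ± 0.20), which repairs peroxiredoxins; both values were named after they were seen. In MCC over MEF, Slc7a11 fell by 1.46 ± 0.46 (edgeR adjusted p = 0.0457), a call lost with any 1 of 5 libraries left out, and fell by 0.58 with MEF library 2 left out. Srxn1 fell by 0.80 ± 0.19 there, with an edgeR adjusted p of 0.0212, which was 0.0749 without MCC library 1 and 0.0551 without iMac library 1 or 2. Gpx4, the lipid peroxidase that guards against ferroptosis, averaged 210 ± 4.76 CPM in iMac, 172 ± 5.21 CPM in MCC and 207 ± 37.4 CPM in MEF, and passed in neither.

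Between iMac and MCC, 0 of the 68 pathway genes passed with edgeR, where 0.0215% of all tested genes did. Under an unadjusted p of 0.05 there were 20, against 18.2% of all tested genes. DESeq2 called 5 higher and 11 lower, and limma-voom called 1 lower. The shares of all genes that DESeq2 and limma-voom called are not given. The log2 fold changes of iMac over MCC were -5.22 ± 0.58 for Slc7a11, -3.66 ± 1.03 for Nqo1, -1.75 ± 0.21 for Gclm and -1.11 ± 0.13 for Txnrd1. For Hmox1 the value was -1.57. The rest of the Nrf2 target and ferroptosis group was mixed. Gclc was at -1.09, Srxn1 at -0.74 and Aifm2 at -0.02, while Gpx4 was at 0.29, Acsl4 at 0.38 and Lpcat3 at 0.49. Nqo1 was at 13.4 CPM in MCC library 1 and 1.82 CPM in library 2. Fibroblast markers were also higher in MCC library 1, and their part was not tested.

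**Figure D4:**
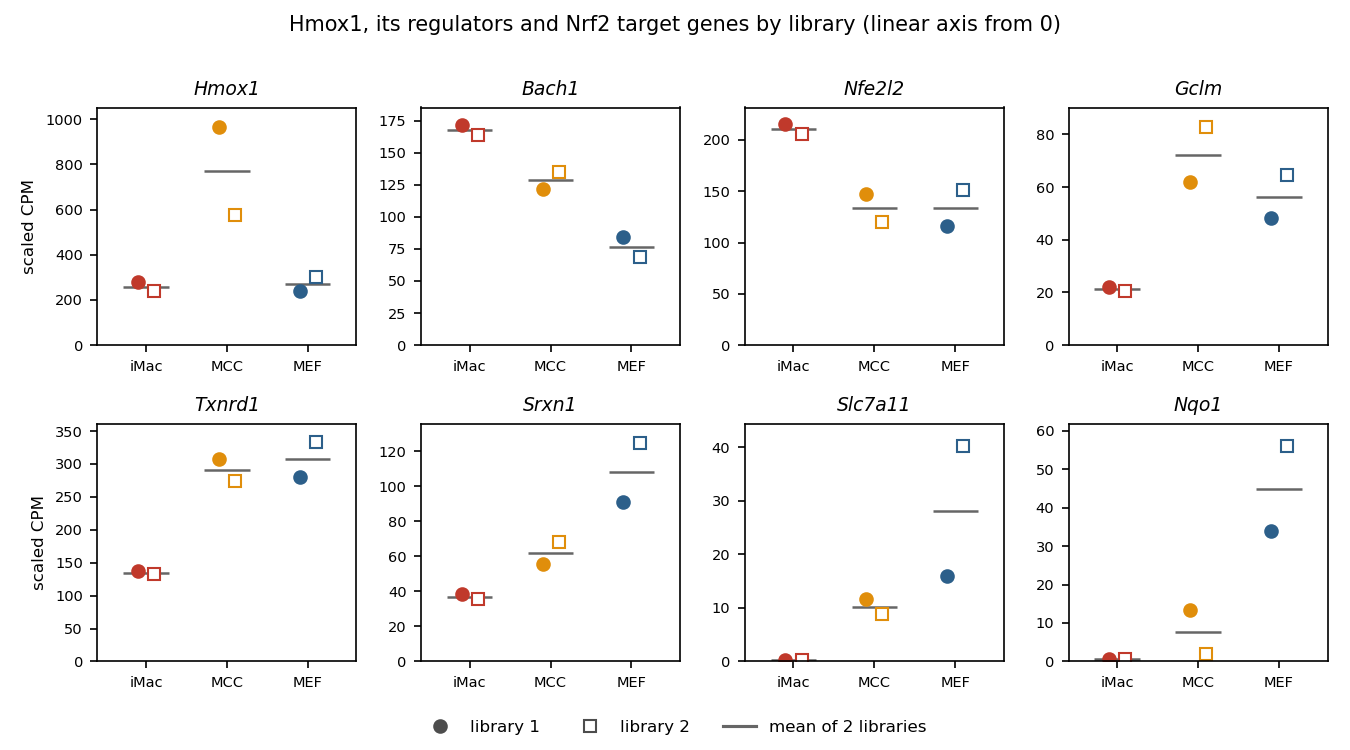
Levels of Hmox1, of Bach1 and Nfe2l2 and of 5 Nrf2 target genes in each library, in scaled CPM on linear axes from 0, with iMac, MCC and MEF from left to right; filled circles are library 1, open squares library 2 and bars the mean of 2 libraries. Bach1 is highest in iMac, Gclm and Txnrd1 are lowest in iMac, and Slc7a11 and Nqo1 are under 1 CPM in both iMac libraries.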

How the data were processed

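Read counts per gene were deposited by the authors for 6 libraries. Per the submitters' processing notes they come from STAR and featureCounts with the mm10 genome; versions, annotation, strand setting and multi-mapping are not stated in the sources used. RNA was taken, per the labels' protocols, with Trizol, and an mRNA kit was used. Counts were used as deposited. Symbols were matched to GENCODE M21 on GRCm38, the assembly of mm10 (29529 of 30445 matched). Tf is listed in the table as Trf.

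Genes were filtered with filterByExpr, scaled by TMM and tested with edgeR 4.0.16 in R 4.3.3 in a design of group alone over the 6 libraries (3 residual degrees of freedom). A standard error is the log2 fold change divided by the square root of F. Alternatives were median-ratio scaling, unscaled totals, no filter, 5 CPM in 2 libraries, DESeq2 1.42.0, limma-voom (limma 3.58.1), only the groups compared, a replicate block and leaving out each library. The edgeR fit was also run on simulated counts, with genes raised in iMac alone and the same spread set for all genes. Its outcome is not reported, and it does not give error rates for these data. Intervals and the floor of 3 counts over a group cover counting error only. The 10 genes and the lists were chosen with earlier results of these data known. Named were the 10 genes, 20 set pathway genes and, per group of the list, the 2 largest called changes at 5 CPM or more; not all are reported.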

Additional observations from a re-analysis of the deposited data

How the results depend on the processing

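For iMac over MEF and MCC over MEF, the called genes among the 10 kept direction and call under every alternative run, with 8 and 9 called higher, except that Hmox1 was lost in MCC over MEF without MEF library 1; over the libraries left out the count was 8 to 8 and 8 to 9. For iMac over MCC, where 0 were called, 1 was called higher with no filter, with DESeq2, with limma-voom and in the fit of only these groups, and 2, 1 and 2 were called lower with DESeq2, limma-voom and that fit; leaving out a library gave 0 to 1 higher and 0 to 1 lower. Of the pathway list, 0 were called there; 5 and 1 were higher with DESeq2 and only these groups, and 3, 11, 1 and 6 lower with no filter, DESeq2, limma-voom and only these groups. Leaving out a library gave 0 to 9 lower for iMac over MCC, 11 to 20 higher and 10 to 17 lower for iMac over MEF, and 6 to 12 lower for MCC over MEF, where the fit of only these groups gave 6. The causes were not tested, and the shares of all genes called under these alternatives are not given.

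Reversals were all in differences that had not passed. Hmox1 in iMac over MEF was 0.093 without MEF library 2 and 0.065 without iMac library 2, and ranged from -0.21 to 0.093 over the libraries left out. Slc11a2 in MCC over MEF was -0.039 with median-ratio factors and -0.037 with DESeq2, and ranged from -0.17 (without MCC library 1) to 0.34, with -0.032 without MEF library 2. In iMac over MCC, leaving out MCC library 2 gave the lowest values for Blvrb (-0.071), Tfrc (-0.18) and Slc11a2 (-0.14), with highest values of 0.27, 0.79 and 0.36 without MCC library 1, Tfrc was -0.012 without iMac library 1, and Ftl1 was -0.016 with unscaled totals, which move the median of all genes there by -0.14.

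Replicate numbers are shared across groups, but nothing in the labels pairs them: deviations of same-numbered libraries correlated at 0.13 between MEF and MCC, -0.01 between MEF and iMac and 0.00 between MCC and iMac. With the replicate block 8 and 9 genes were called against MEF and 0 between iMac and MCC, with 19 pathway genes higher and 15 lower in iMac over MEF, and 18 and 9 in MCC over MEF. With 2 libraries a group, the sizes of changes against low levels were uncertain, as for Cd163, which had 2 and 9 reads in the MEF libraries.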
